A study of Mus musculus with 32 samples.

Results

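The AKT and mTOR regulators described here are 10 genes chosen by name, *Akt1*, *Akt2*, *Mtor*, *Rptor*, *Deptor*, *Eif4ebp1*, *Sesn1*, *Sesn2*, *Ddit4* and *Pik3r1*, out of 54838 genes in the expression table. All 10 were found under 1 gene identifier each and passed the filter on low counts in every comparison. The RNA sequenced came from the tibialis anterior (TA) muscle of 4 wild-type (WT) and 4 *Mtm1* knockout (KO) mice at each of postnatal days 1, 14, 21 and 35 (P1, P14, P21 and P35), giving 32 libraries in 8 groups. All mice were on the C57BL6/J strain background and no group received a treatment. The KO line carries a targeted deletion in exon 4 of the X-linked gene *Mtm1* from conception in every cell type, KO animals are hemizygous males, and the controls were WT littermates. The labels name the tissue as skeletal muscle, and the study's methods name the TA.

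Insulin and insulin-like growth factor receptors activate phosphoinositide 3-kinase (PI3K), which makes the membrane lipid that recruits the kinase AKT. AKT releases the kinase complex mTORC1 from inhibition, and mTORC1 in turn favours protein synthesis and holds back autophagy, a balance that sets the size of muscle fibres. MTM1 is a phosphatase of endosomal phosphoinositides, and its loss is the cause of X-linked myotubular myopathy.

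Total counts were 49321035 to 85631408 per library. *Mtm1* was lower in every KO library than in every WT library of its age, with a log2 fold change that was -0.98 at P1 (SE 0.172), -2.34 at P14 (SE 0.0776), -2.71 at P21 (SE 0.111) and -2.56 at P35 (SE 0.0992). The adjusted *P* in edgeR's quasi-likelihood test was 0.0668 at P1 and at most 8.13e-06 at the later ages. Myofibre markers (7 genes including *Acta1*, *Ckm* and *Ttn*) were all detected, and their summed expression was 20689 to 40523 CPM at P1 and 65833 to 160865 CPM from P14 on. Keratinocyte markers (*Krt5*, *Krt14*, *Krt10*, *Krt1* and *Krt15*) summed to 1513 to 5790 CPM at P1, with overlapping ranges in both genotypes, and to 2.46 to 6.25 CPM later. CPM are counts per unit of library size, scaled by TMM over all 32 libraries, whereas log2 fold changes come from the fit of each comparison. The TMM factors were 1.44 to 1.70 in the P1 libraries and 0.726 to 1.05 in all others. They did not overlap between the genotypes at P21, at 0.729 to 0.840 in WT and 0.880 to 0.922 in KO. The same held at P35, at 0.726 to 0.763 in WT and 0.961 to 1.05 in KO.

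No member met both thresholds for a differentially expressed gene (DEG) between KO and WT at any of the 4 ages in edgeR with TMM scaling. The thresholds were an adjusted *P* under 0.01 and a change of more than 1.5-fold either way. DESeq2 called *Ddit4* at P1 and none later. With library totals in place of TMM, edgeR called *Akt2* and *Eif4ebp1* at P21 and *Eif4ebp1* at P35. With TMM, the share of all tested genes called was 0.0442% at P1 and 0.0318% at P14, rising to 4.67% at P21 and 16% at P35. Several members nevertheless had KO libraries wholly outside the WT range, with *Ddit4*, *Pik3r1* and *Sesn1* higher at P1, *Akt2* higher at P14 and P21, *Eif4ebp1* higher at P21, and *Mtor* and *Deptor* lower at P35. Of all genes tested, the share with non-overlapping libraries was 8.73% and 4.82% at the first 2 ages and 25.4% and 39.6% at the last 2, against 3, 1, 2 and 2 of the 10 members. An unadjusted *P* under 0.05 was reached by 3, 1, 4 and 4 members, and by 10.9%, 6.82%, 35.1% and 50.3% of all genes.

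**Figure D1:**
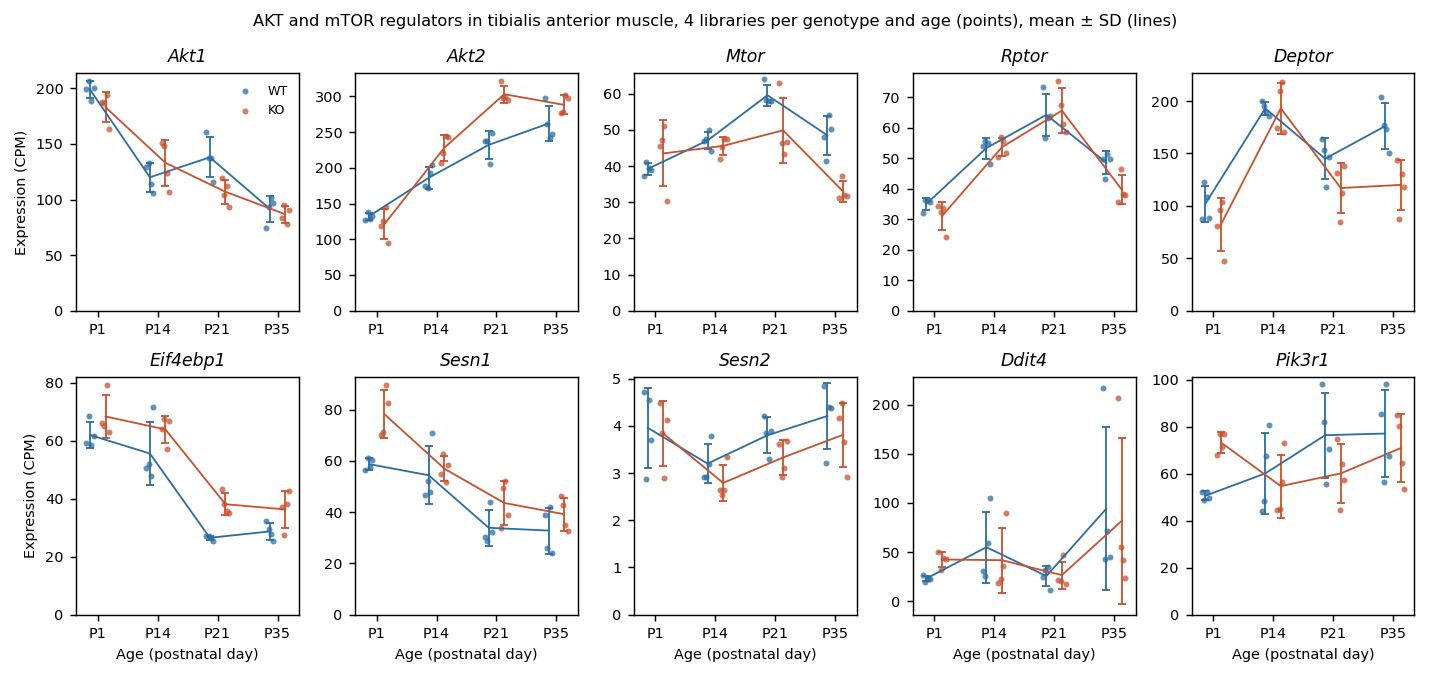
Expression of the 10 members in CPM on 1 TMM scale by postnatal age in WT (blue) and KO (orange), with a point for each of 4 libraries per group and lines through the mean ± SD. On this scale *Akt1* is lower and *Akt2* higher at P35 than at P1 in both genotypes, and the widest spread between libraries of 1 group is that of *Ddit4* at P35, from 23.8 to 207 CPM in KO.

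Pik3r1 encodes p85α, the regulatory subunit that holds the PI3K catalytic subunit and brings it to activated receptors. *Pik3r1* (ENSMUSG00000041417) lies on the minus strand at chr13:101680563-101768217 of GRCm38. At P1 WT libraries had 52.4, 48.7, 52.0 and 49.5 CPM, and KO libraries had 68.0, 76.7, 71.5 and 77.1 CPM. Each KO value lay above the WT range, with a log2 fold change of 0.55 (SE 0.0631, 95% interval 0.40 to 0.69), which was under the fold threshold, and an adjusted *P*=0.0155 in edgeR, which also missed its threshold. DESeq2 gave 0.54 with an adjusted *P*=1.4e-12, and the log2 fold change stayed between 0.52 and 0.58 over 17 alternatives. The adjusted *P* was 0.186 in edgeR with a replicate block and 0.386 with all 32 libraries in 1 fit, the highest of them.

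At later ages the *Pik3r1* libraries of both genotypes overlapped. WT means were 60.1 ± 17.1 CPM (SD, n=4) at P14, 76.4 ± 18.1 at P21 and 77.1 ± 18.5 at P35, and KO means were 54.7 ± 13.4, 60.1 ± 12.7 and 70.9 ± 14.5 CPM. The log2 estimates for P14, P21 and P35 were -0.14, -0.33 and -0.10, all with an adjusted *P* of 0.221 or more. The KO effect at P14 minus that at P1 was -0.67 (95% interval -1.25 to -0.09), with an adjusted *P*=0.714 in edgeR for this interaction.

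The AKT kinases carry the signal from PI3K to their substrates. *Akt1* (ENSMUSG00000001729, chr12:112653821-112674884, minus strand) serves growth broadly, and *Akt2* (ENSMUSG00000004056, chr7:27591552-27640826, plus strand) is the isoform best known for insulin-stimulated glucose uptake in muscle and fat. *Akt1* was at 189 to 207 CPM in WT against 163 to 194 CPM in KO at P1, and at 74.7 to 101 CPM in WT against 78.4 to 95.1 CPM in KO at P35. *Akt2* was at 127 to 138 CPM in WT against 94.6 to 145 CPM in KO at P1, and at 242 to 297 CPM in WT against 276 to 302 CPM in KO at P35. For both genes the P1 and P35 libraries did not overlap.

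Divided by the length of their annotated exons, the isoforms changed order with age. In WT, *Akt1* was at 48.5 ± 1.80 CPM per kilobase and *Akt2* at 18.5 ± 0.683 at P1, whereas at P35 they were at 22.4 ± 2.87 and 36.7 ± 3.46 (SD, n=4). The *Akt2* to *Akt1* ratio per kilobase does not depend on library scaling. This ratio was chosen after the levels of both genes had been seen and is given without a test. In WT libraries it was 0.367, 0.383, 0.391 and 0.381 at P1, then 0.778, 0.744, 0.973 and 1.11 at P14, 0.852, 0.996, 0.859 and 1.23 at P21, and 2.28, 1.61, 1.37 and 1.46 at P35. In KO libraries it was 0.363, 0.387, 0.429 and 0.333 at P1, then 0.782, 0.859, 1.13 and 1.30 at P14, 1.55, 1.64, 1.53 and 1.81 at P21, and 1.91, 1.68, 2.21 and 1.89 at P35. The genotypes overlapped at P1, P14 and P35, and at P21 the lowest KO ratio (1.53) was above the highest WT ratio (1.23). Within each of the 4 same-numbered pairs at P14 the KO ratio was the higher, by as little as 0.782 against 0.778 in replicate 1. KO libraries at P21 lay within the range of the WT libraries at P35. The 2 isoforms together were at 55.4 ± 1.01 to 67.0 ± 2.36 CPM per kilobase across WT groups and 61.6 ± 2.04 to 68.7 ± 4.11 across KO groups.

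At P14, *Akt2* was at 175, 172, 193 and 204 CPM in WT, and the KO libraries had 206, 221, 244 and 243 CPM. All KO libraries were above all WT libraries, by 0.30 on the log2 scale (SE 0.0816, adjusted *P*=0.462 in edgeR). Libraries with the same replicate number deviated together at P14, and with this number as a block the estimate was 0.30 (SE 0.0439, adjusted *P*=0.00526), still under the fold threshold. The block raised the number of DEGs among all genes at P14 from 5 to 98 and left the members at 0.

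At P21, *Akt2* was at 238, 238, 205 and 248 CPM in WT, and the KO libraries had 321, 298, 299 and 295 CPM. The KO libraries again stood above the WT range, with a log2 fold change of 0.40 (SE 0.0683, 95% interval 0.24 to 0.55, adjusted *P*=0.00433 in edgeR), which passed the *P* threshold and not the fold threshold. With library totals in place of TMM *Akt2* passed both thresholds, a setting that moved the median of all genes at P21 from 0.008 to 0.196. *Akt1* at P21 was at 161, 137, 137 and 116 CPM in WT, and the KO libraries had 119, 104, 112 and 93.4 CPM. Its genotypes overlapped through the lowest WT and the highest KO library, and its estimate was -0.35 (SE 0.103, adjusted *P*=0.0391). At P35 the difference in *Akt2* was 0.17 (95% interval -0.02 to 0.35), and that in *Akt1* was -0.05 (-0.29 to 0.18). Without WT replicate 3, the *Akt2* estimate at P21 was the lowest of the leave-one-out fits at 0.33, and 6 of these 8 fits had an adjusted *P* above 0.01.

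The mTORC1 core is formed by the kinase mTOR and the scaffold raptor, which presents substrates to it, and DEPTOR binds and inhibits mTOR. *Mtor* (ENSMUSG00000028991, chr4:148448611-148557683, plus strand) was at 48.1, 41.4, 54.2 and 50.2 CPM in WT, and the KO libraries had 31.1, 37.2, 32 and 31.6 CPM at P35. No KO library reached the lowest WT library, and the means were 48.5 ± 5.36 CPM in WT and 33.0 ± 2.82 CPM in KO (SD, n=4). The log2 fold change was -0.53 (SE 0.0983, 95% interval -0.75 to -0.31, adjusted *P*=0.00248 in edgeR), which passed the *P* threshold and fell short of the fold threshold. It crossed the fold threshold without WT replicate 2 (-0.61) or without KO replicate 2 (-0.60), and with library totals in place of TMM it was -0.12 (adjusted *P*=0.349), a setting that moved the median of all genes at P35 from 0.04 to 0.44.

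Earlier *Mtor* libraries overlapped between genotypes. WT means were 39.2 ± 1.65 CPM at P1, 47.1 ± 2.39 at P14 and 59.6 ± 2.90 at P21, against 43.5 ± 9.12, 45.6 ± 2.55 and 49.9 ± 8.92 CPM in KO. At P21, 3 KO libraries were at 43.4 to 46.8 CPM, below the lowest WT library at 58.0 CPM, and the other was at 63.1 CPM. The KO effect at P35 minus that at P14 was -0.51 (SE 0.164, 95% interval -0.84 to -0.17), with an adjusted *P*=0.031 in edgeR, the smallest of any member in an interaction. Interactions were called at an adjusted *P* under 0.01, and no member was called in this comparison of ages (8.53% of all genes) or in those of P14 with P1 (0.0161%), P21 with P14 (0.425%) and P35 with P21 (0.463%). DESeq2 called 0 members in all 4, and an unadjusted *P* under 0.05 in edgeR was reached by 3 members for P35 against P14 (30.9% of all genes), 2 for P14 against P1 (6.46%), 1 for P21 against P14 (12.9%) and 1 for P35 against P21 (17.4%).

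The gene *Angptl7* lies inside *Mtor* on the opposite strand and was at 0.491 to 192 CPM over the 32 libraries. The sources used here do not state whether the counting used strand. Whether exons of the 2 genes overlap was not examined, so it is not known whether any reads could be mistaken between them. At P35 *Angptl7* ranges overlapped between genotypes, with 37.0 to 192 CPM in WT against 13.1 to 84.6 CPM in KO.

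*Deptor* (ENSMUSG00000022419, chr15:55112317-55259271, plus strand) also stood apart at P35. Its WT libraries were at 204, 177, 173 and 150 CPM and its KO libraries at 144, 87.6, 130 and 118 CPM. The highest KO library was just below the lowest WT library. The log2 fold change was -0.53 (SE 0.151, 95% interval -0.87 to -0.19), with an adjusted *P*=0.0199 in edgeR. Without KO replicate 2, the lowest library, the estimate was -0.41, and with library totals it was -0.13 (adjusted *P*=0.442).

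*Rptor* (ENSMUSG00000025583, chr11:119602905-119899576, plus strand) encodes raptor. At P35 it was at 49.8, 43.3, 51.6 and 49.8 CPM in WT, and the KO libraries had 35.7, 46.5, 38.3 and 38.0 CPM. KO replicate 2 lay inside the WT range and the others below it, and the log2 fold change was -0.27 (SE 0.098, adjusted *P*=0.0519). At P1, P14 and P21 its estimates were -0.16, 0.01 and 0.05, with 95% intervals that reached no further than -0.41 and 0.26.

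At P35, where *Mtor* and *Deptor* were lower in KO, the summed myofibre markers were also lower, at 65833 to 86824 CPM against 102686 to 146635 CPM in WT, and 2 of 7 were DEGs (*Acta1* and *Pygm*). Macrophage markers summed to 53.7 to 79.6 CPM in KO against 36.1 to 44.6 CPM in WT, with 3 of 5 DEGs. Adipocyte markers summed to 12.7 to 48.3 CPM in KO against 1.98 to 8.35 CPM in WT, with 3 of 4 DEGs. Of all genes tested at P35, 16% were DEGs. Satellite cell markers were at 12.1 to 26.9 against 23.8 to 39.0 CPM, and endothelial markers at 272 to 339 against 311 to 578 CPM. Schwann cell markers summed to 204 to 860 CPM in KO against 46.7 to 394 CPM in WT, with log2 fold changes of 1.34 to 1.68, and none of the 4 was a DEG (lowest adjusted *P*=0.0157 in edgeR). Mitochondrially encoded genes took a median of 16.2% of counts in WT and 10.4% in KO. In bulk muscle, fewer cells of a type and less RNA per cell cannot be told apart, and the part of these shifts in the results for the members was not tested.

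**Figure D2:**
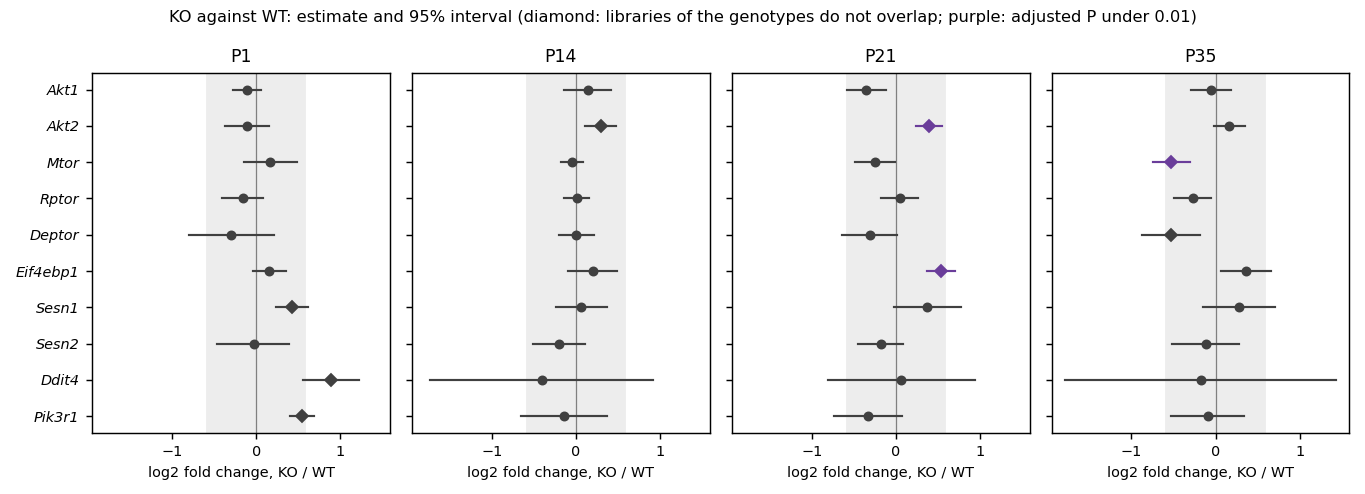
Log2 fold change of KO over WT for each member at each age (x axis), as the edgeR estimate with its 95% interval, with diamonds where the libraries of both genotypes do not overlap, purple where the adjusted *P* is under 0.01, and grey shading inside the fold threshold. All points but that of *Ddit4* at P1 (0.89) lie inside the shading, and purple marks *Akt2* and *Eif4ebp1* at P21 and *Mtor* at P35.

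The protein 4E-BP1, encoded by *Eif4ebp1* (ENSMUSG00000031490, chr8:27260329-27276674, plus strand), blocks the cap-binding factor eIF4E until mTORC1 phosphorylates it. At P21 it was at 27.0, 27.0, 26.5 and 25.5 CPM in WT, and the KO libraries had 43.3, 38.2, 35.9 and 35.0 CPM. The WT libraries spanned less than 2 CPM, and every KO library stood above them. The log2 fold change was 0.53 (SE 0.0729, 95% interval 0.37 to 0.70, adjusted *P*=0.0016 in edgeR), the smallest adjusted *P* of any member between the genotypes, though below the fold threshold. It kept an adjusted *P* under 0.01 in all 8 leave-one-out fits (0.47 to 0.57). With library totals in place of TMM, *Eif4ebp1* passed both thresholds at P21 and at P35.

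At P35 *Eif4ebp1* was at 32.3, 29.5, 27.8 and 25.3 CPM in WT, and the KO libraries had 37.0, 27.5, 38.3 and 42.6 CPM. One KO library lay within the WT range, and the log2 fold change was 0.36 (SE 0.131, adjusted *P*=0.0501). Before P21 the estimates were 0.16 at P1 (95% interval -0.04 to 0.35) and 0.20 at P14 (-0.09 to 0.49). At P21 the myofibre marker sum was 105464 to 112193 CPM in KO and 120708 to 160865 CPM in WT. Macrophage markers summed to 51.8 to 64.9 CPM in KO against 34.9 to 40.9 CPM in WT at this age, with 2 of 5 DEGs, both higher. Endothelial markers summed to 417 to 509 CPM in KO against 534 to 816 CPM in WT. Of the satellite cell markers, 2 of 4 were DEGs, both lower. Of all genes tested at P21, 4.67% were DEGs. Mitochondrially encoded genes took a median of 8.32% of counts in KO and 10.7% in WT. The part of these shifts in the values of *Akt2* and *Eif4ebp1* was not tested.

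REDD1, encoded by *Ddit4*, and the sestrins restrain mTORC1 under stress, REDD1 through the TSC complex and the sestrins through the amino acid sensing machinery at the lysosome. *Ddit4* (ENSMUSG00000020108, chr10:59949669-59951834, minus strand) is induced by hypoxia, fasting and glucocorticoids. At P1 it was at 27.0, 20, 22.4 and 22.9 CPM in WT, and the KO libraries had 50.3, 32, 44.3 and 42.9 CPM. All KO libraries were above all WT libraries. The log2 fold change of 0.89 (SE 0.145, 95% interval 0.56 to 1.22) was the largest in size of any member between the genotypes and passed the fold threshold, with an adjusted *P*=0.0546 in edgeR, which did not pass. DESeq2 called it at P1 (0.88, adjusted *P*=7.34e-06). Over all alternatives the estimate was 0.80 to 1.00 and the adjusted *P* reached 0.695 when all 32 libraries shared 1 estimate of spread.

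From P14 on, the *Ddit4* libraries of both genotypes overlapped. At P14 the WT libraries were at 30.3, 26.0, 58.7 and 105 CPM and the KO libraries at 18.5, 22.7, 35.4 and 90.2 CPM, in order of replicate number. Replicate 4 was the highest in both genotypes, and within each number the KO library was below the WT library. With the number as a block the log2 fold change was -0.46 (SE 0.09, adjusted *P*=0.0182 in edgeR), against -0.40 (SE 0.584, adjusted *P*=0.972) without it.

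At P35 the WT libraries of *Ddit4* were at 217, 43.3, 71.0 and 45.1 CPM and the KO libraries at 207, 55.3, 41.4 and 23.8 CPM. Replicate 1 was far above the others in both genotypes. Leaving out both of these libraries, a setting chosen after seeing them, gave -0.38 (SE 0.318) in place of -0.18 (SE 0.718), whereas leaving out either of them alone gave 0.65 (without the WT library) or -1.21 (without the KO library). At P21 the WT libraries had 25.0, 31.7, 34.7 and 11.1 CPM, and KO libraries had 22, 20.1, 46.9 and 17.2 CPM, a difference of 0.06 with a 95% interval of -0.81 to 0.94. The SD within groups, pooled over the 8 groups, was 0.858 on the log2 scale for *Ddit4*, higher than that of 98% of 18583 genes, whose median was 0.234. The other members had pooled SDs of 0.13 (*Akt2*) to 0.303 (*Pik3r1*). A change in *Ddit4* of the size seen at P1 lay within its 95% interval at P14, P21 and P35.

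*Sesn1* (ENSMUSG00000038332, chr10:41809935-41908424, plus strand) was the more abundant sestrin of the pair, at 14.8 ± 0.582 CPM per kilobase in WT at P1 against 1.14 ± 0.244 for *Sesn2*. At P1 *Sesn1* was at 56.3, 61.3, 57.5 and 60.3 CPM in WT, and the KO libraries had 70.0, 71.4, 89.5 and 82.5 CPM. The KO libraries lay above the WT libraries, with a log2 fold change of 0.43 (SE 0.087, 95% interval 0.23 to 0.62) and an adjusted *P*=0.101 in edgeR and 0.00228 in DESeq2. At the later ages its libraries overlapped, with estimates of 0.07, 0.38 and 0.28 and an upper 95% limit of 0.77 at P21.

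*Sesn2* (ENSMUSG00000028893, chr4:132492032-132510501, minus strand) was the least abundant member per kilobase in every group, with 136 to 597 counts per library and 2.54 to 4.84 CPM. Its libraries overlapped between the genotypes at every age. The KO estimates were -0.03, -0.20, -0.18 and -0.12 from P1 to P35, with 95% intervals between -0.52 and 0.39.

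At P1, KO replicate 4 was the lowest library of its group for *Akt1* (163 CPM), *Akt2* (94.6 CPM), *Mtor* (30.3 CPM), *Rptor* (24.2 CPM), *Deptor* (47.8 CPM) and *Eif4ebp1* (63.2 CPM). Mitochondrially encoded genes took 5.2% of its counts, against 3.21% to 3.36% in the other KO libraries. It also had the lowest myofibre marker sum (20689 CPM) and endothelial marker sum (260 CPM) of the P1 libraries. Without it the log2 fold change at P1 was 0.88 for *Ddit4*, 0.52 for *Pik3r1* and 0.40 for *Sesn1*, and that of *Mtor* rose from 0.17 to 0.31 (adjusted *P*=0.0555).

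The sequences upstream of the 3 genes that stood apart at P1 are printed because all 3 were higher in every KO library, with *Akt1* as the member whose window held the FOXO motif. They come from RefSeq on GRCm38.p6, read 5′ to 3′ on the strand of the gene, and end at the base before the start of its transcript. The window of *Ddit4* was shortened to the bases outside its annotated exons, and that of *Sesn1* belongs to the downstream of its 2 starts. *Pik3r1* and *Akt1* also have 2 starts in the table, and the windows of their upstream starts are shown. Capitals mark the FOXO motif, which is read on the opposite strand here.
Ddit4, chr10:59951835-59952020, minus strand: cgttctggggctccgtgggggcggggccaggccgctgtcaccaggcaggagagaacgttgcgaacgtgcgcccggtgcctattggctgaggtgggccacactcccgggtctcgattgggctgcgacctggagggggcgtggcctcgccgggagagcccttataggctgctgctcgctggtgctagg
Pik3r1, chr13:101768218-101768467, minus strand: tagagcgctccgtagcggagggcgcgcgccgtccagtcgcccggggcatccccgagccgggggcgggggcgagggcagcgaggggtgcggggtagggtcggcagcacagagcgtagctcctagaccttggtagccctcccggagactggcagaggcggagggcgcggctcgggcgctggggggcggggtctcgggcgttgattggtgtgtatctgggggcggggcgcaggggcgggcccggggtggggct
Sesn1, chr10:41887189-41887438, plus strand: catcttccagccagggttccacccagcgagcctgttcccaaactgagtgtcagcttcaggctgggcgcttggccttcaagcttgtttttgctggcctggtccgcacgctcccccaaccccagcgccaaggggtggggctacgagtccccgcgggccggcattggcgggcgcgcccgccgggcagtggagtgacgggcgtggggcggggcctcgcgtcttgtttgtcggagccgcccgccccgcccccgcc
Akt1, chr12:112674885-112675134, minus strand: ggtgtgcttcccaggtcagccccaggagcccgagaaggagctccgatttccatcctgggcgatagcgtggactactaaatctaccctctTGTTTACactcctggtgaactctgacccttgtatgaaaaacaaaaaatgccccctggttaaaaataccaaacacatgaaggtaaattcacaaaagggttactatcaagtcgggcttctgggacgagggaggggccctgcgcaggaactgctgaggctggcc

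Of the 10 members, 8 had 1 or more such windows of 250 bases, 14 in all, and *Deptor* and *Eif4ebp1* had none in the RefSeq table. The full windows of *Ddit4*, *Pik3r1* and *Sesn1* had a GC content of 70%, 76.4% and 71.2%, against a median of 52.4% over 32851 windows of all genes, and that of *Akt1* had 52%. The windows of the other starts had 42.4% for *Pik3r1*, 70% for *Sesn1* and 78.4% for *Akt1*, so these values depend on the start taken. Among the remaining members, *Sesn2* had 63.2%, *Mtor* 54.4%, *Rptor* 37.6% and *Akt2* 48.8% to 58.8%. The motif GTAAACA, bound by FOXO factors, was searched on both strands and stood in 1 of the 14 windows (*Akt1*) and in 3.17% of all windows. TGATGNAAN, a composite element of ATF4, stood in 1 window (*Akt2*) and in 3.44% of all windows. The E-box CACGTG (6.02% of all windows) and the glucocorticoid receptor palindrome (0.00913%) were in none of the 14. A match describes these letters and is not evidence of binding.

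Between P1 and P14 several members changed in both genotypes. In WT, *Deptor* rose from 87.5, 123, 108 and 88.1 CPM to 200, 195, 190 and 186 CPM, a change of 0.91 on the log2 scale (SE 0.111, adjusted *P*=4.24e-05 in edgeR), and *Rptor* rose from 32.1 to 36.4 CPM to 48.3 to 55.8 CPM (0.59, SE 0.0649). *Akt1* fell by 0.74 on the log2 scale (SE 0.0806, adjusted *P*=2e-05). These 3 members were called in WT, where 55.1% of all genes were. In KO, *Akt2* (0.89, SE 0.133), *Deptor* (1.2, SE 0.218) and *Rptor* (0.76, SE 0.113) rose and were called, against 52.6% of all genes.

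These P1 to P14 directions hold relative to the bulk of the genes. With library totals in place of TMM, the median of all genes moved from -0.08 to -0.85 in WT and from -0.09 to -0.81 in KO. *Rptor* then changed sign in WT (-0.17), *Deptor* was at 0.15 in WT, and *Akt2*, *Rptor* and *Deptor* were at 0.18, 0.06 and 0.51 in KO, all above that median and not called. *Akt1* remained lower under both scalings. The summed keratinocyte markers were lower and the summed myofibre markers higher at P14 in both genotypes, as given above, and their part in the members' changes was not tested.

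From P14 to P21 *Eif4ebp1* fell in both genotypes. The WT libraries went from 50.6, 52.1, 47.8 and 71.7 CPM to 27.0, 27.0, 26.5 and 25.5 CPM, a change of -1.08 on the log2 scale (SE 0.124, adjusted *P*=0.000898 in edgeR), and it was the 1 member called in WT, where 5.53% of all genes were. In KO the fall went from 64.1, 67.5, 57.2 and 66.9 CPM to 43.3, 38.2, 35.9 and 35.0 CPM (-0.76, SE 0.0826, adjusted *P*=0.000728). The libraries of the 2 ages did not overlap in either genotype. The difference between these falls was 0.32 (95% interval -0.02 to 0.66, adjusted *P*=0.42 for the interaction), so they were not shown to differ. *Deptor* was the second member called in KO (-0.74, SE 0.154, adjusted *P*=0.00859), where 7.04% of all genes were, and 7 of the 8 leave-one-out fits lost that call, which held without KO replicate 4 of P14 (-0.80).

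From P21 to P35 no member was called in WT by edgeR and 1 by DESeq2, where edgeR called 2.45% of all genes, and 5 members had an unadjusted *P* under 0.05 (34.4% of all genes). Over the same ages *Rptor* was the 1 member called in KO, where 4.01% of all genes were. In KO, *Rptor* went from 75.4, 67.6, 61.3 and 58.6 CPM to 35.7, 46.5, 38.3 and 38.0 CPM, a change of -0.71 on the log2 scale (SE 0.106, adjusted *P*=0.00336 in edgeR) that lost its call in 4 of 8 leave-one-out fits. In WT its change was -0.42 (SE 0.0861, adjusted *P*=0.0133), and the interaction was -0.33 (adjusted *P*=0.224). *Mtor* changed by -0.31 (SE 0.0838, adjusted *P*=0.0324) in WT and by -0.58 (SE 0.121, adjusted *P*=0.0103) in KO. *Akt1* changed by -0.60 in WT (SE 0.115) with an adjusted *P*=0.01, at the threshold itself. The comparisons between ages share groups with each other and with those between genotypes, so their values are not independent.

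**Figure D3:**
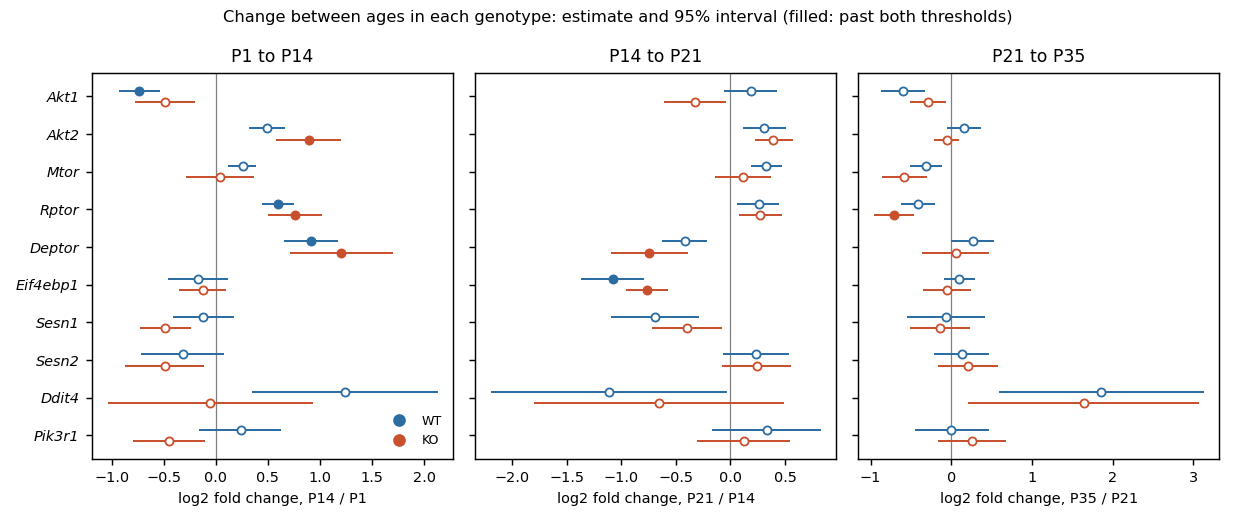
Log2 fold change of each member between successive ages in WT (blue) and KO (orange), as edgeR estimates with 95% intervals, filled where both DEG thresholds were passed. *Deptor* and *Rptor* are filled in both genotypes from P1 to P14 and *Eif4ebp1* in both from P14 to P21, and the intervals of *Ddit4* are the widest in each panel.

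Around the members, 84 other genes of the pathway were examined in 7 roles, and all were tested at every age. None was called at P1 or P14 by edgeR or DESeq2, where 16 and 4 of the 84 had an unadjusted *P* under 0.05 in edgeR, against 10.9% and 6.82% of all genes. At P21, 2 of 84 (2.38%) were DEGs, 1 in each direction, against 4.67% of all genes. At P35, 10 of 84 (11.9%) were DEGs, 1 higher and 9 lower, against 16% of all genes (8.49% higher and 7.52% lower). This split rested on the scaling, since library totals gave 14 DEGs among the 84 genes at P35, 11 higher and 3 lower. The median log2 fold change of the 84 genes at P35 was -0.18 and that of all genes 0.04. With library totals these medians were 0.23 and 0.44. A change of scaling moves all genes by nearly the same amount, so it could hardly alter which median was the lower. Libraries did not overlap at P35 for 31 of the 84 genes and for 39.6% of all genes.

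Among receptors and PI3K regulators, 2 of 17 (11.8%) were DEGs at P35, against 16% of all genes. *Insr*, the insulin receptor, was at 102 to 122 CPM in WT against 60.9 to 89.9 CPM in KO (-0.62, SE 0.124, adjusted *P*=0.00375 in edgeR). *Phlpp1*, a phosphatase of AKT, was at 21.1 ± 1.27 CPM in WT and 12.6 ± 1.65 CPM in KO (-0.72, SE 0.104). Among the AKT substrates, 2 of 8 were DEGs, against the same 16% of all genes. *Tbc1d1*, a brake on glucose transporter traffic, was at 164 to 307 CPM in WT against 52.1 to 93.7 CPM in KO (-1.45, SE 0.223), and *Foxo4*, a transcription factor restrained by AKT, at 180 to 220 against 104 to 127 CPM (-0.68, SE 0.0942).

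No further mTOR complex gene (0 of 7) and none of the 21 genes of amino acid sensing was a DEG at P35, against 16% of all genes. At P21 *Castor2*, related to the arginine sensor CASTOR1, was higher in KO, at 208 to 266 CPM against 123 to 140 CPM in WT (0.86, SE 0.081, adjusted *P*=0.00033 in edgeR). Of the TSC and RHEB genes, 1 of 5 was a DEG at P35, against 16% of all genes. It was *Tsc1*, whose product is part of the complex that turns off RHEB (-0.59, SE 0.115). *Tsc1* passed the fold threshold narrowly.

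Most of the stress and energy genes listed encode subunits of AMPK, the energy-sensing kinase that opposes mTORC1. At P35, 3 of the 11 genes were DEGs, against 16% of all genes, and all 3 encode such subunits. *Prkab2* was at 445 to 750 CPM in WT against 158 to 219 CPM in KO (-1.51, SE 0.174), and it was already lower at P21 (-0.80, SE 0.135, adjusted *P*=0.00396 in edgeR). The catalytic subunit genes moved in opposite directions. *Prkaa1* was at 25.6 to 27.3 CPM in WT against 38.1 to 50.1 CPM in KO (0.86, SE 0.0941), whereas *Prkaa2*, named outside the rule after its value had been seen, changed by -0.82 (SE 0.0881, adjusted *P*=0.000201).

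Of the genes acted on by mTORC1, 2 of 15 were DEGs at P35, against 16% of all genes. *Lpin1*, a phosphatidate phosphatase, was at 260 to 367 CPM in WT against 132 to 160 CPM in KO (-1.12, SE 0.125), and *Ulk1*, the kinase that starts autophagy, at 77.6 to 107 against 49.6 to 64.7 CPM (-0.71, SE 0.115). With library totals, all 10 genes kept their direction at P35 and 4 of them their call (*Prkab2* at -1.11, *Tbc1d1* at -1.05, *Lpin1* at -0.72 and *Prkaa1* at 1.27), whereas *Insr* was at -0.21 and *Tsc1* at -0.18.

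The KO effect differed between ages for several of these genes. Comparing P35 with P14, 8 of the 84 genes were called in the interaction (9.52%, against 8.53% of all genes), 7 of them with a lower KO effect at P35. This split also rested on the scaling, since library totals gave 11 with a higher and 2 with a lower KO effect. The median of the 84 genes was -0.147 against 0.022 for all genes with TMM, and 0.195 against 0.365 with library totals. Scaling moves both medians nearly alike, so their order is not a check on the scaling. Comparing P35 with P21, 3 were called (3.57%, against 0.463% of all genes), namely *Tbc1d1* (-1.55, SE 0.27), *Ulk1* (-0.92, SE 0.178) and *Wdr59* (-0.48, SE 0.0952), a subunit of the amino acid sensing complex GATOR2. The last of these was named after its value had been seen.

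**Figure D4:**
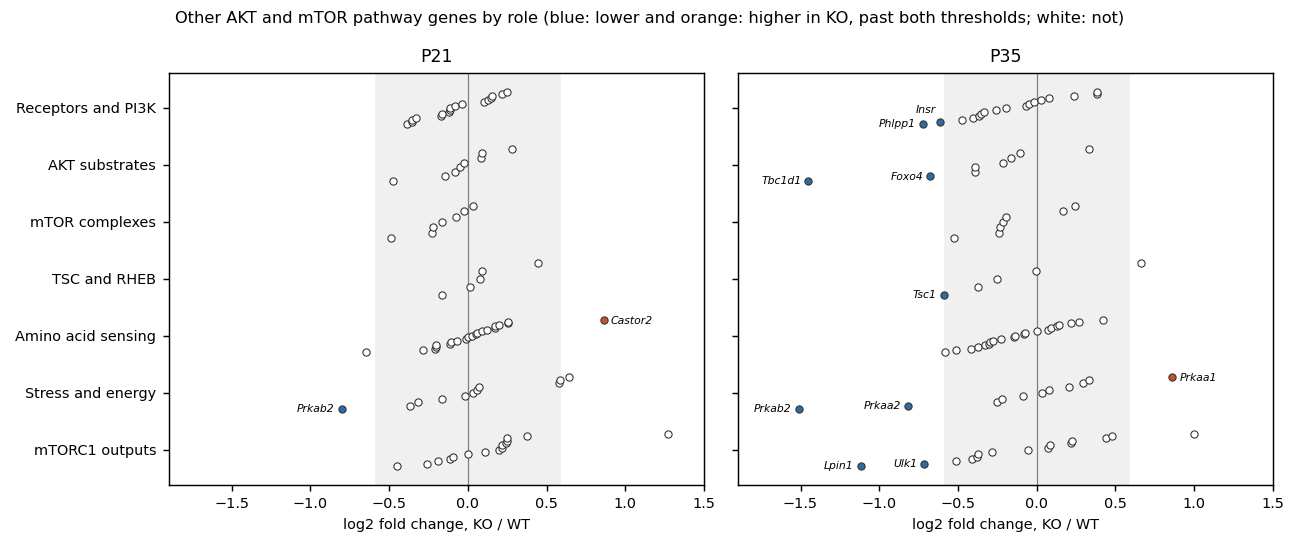
Log2 fold change of KO over WT (x axis) for 84 further pathway genes grouped by role, at P21 and P35, in blue where lower and orange where higher past both DEG thresholds, with grey shading inside the fold threshold. At P35, 9 blue points and 1 orange point (*Prkaa1*) lie outside the shading, and the mTOR complex and amino acid sensing rows have none.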

How the data were processed

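Per the labels, poly(A) RNA was isolated and made into directional libraries. According to the study's methods, the muscle was the TA, and the authors aligned paired-end reads to GRCm38 with STAR. The submitters' processing notes name STAR 2.6.1 and RSEM 1.2.22, and the deposited values are RSEM expected counts per gene and library, unscaled and unpooled. The methods also name HTSeq, and the annotation and strand setting of the counting are not given in the sources used here. Symbols, coordinates and exon lengths came from GENCODE M21 for 54809 of 54838 genes, and 0 value columns were left unused.

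Groups came from the labels. Expected counts were rounded, filtered with filterByExpr, scaled by TMM and tested within each comparison with the two-sided quasi-likelihood test of edgeR 4.0.16 in R 4.3.3, with *P*-values adjusted by Benjamini-Hochberg across every gene tested. Interactions were fitted on all 32 libraries and called at an adjusted *P* under 0.01. SEs and 95% intervals are those of the edgeR log2 fold change. On simulated data the tests within comparisons recovered most of the known changes, and the interactions fewer than those. Recovery of differences with the size and spread seen for the members was not tested. CPM over all libraries, exon lengths and the *Akt2* to *Akt1* ratio were computed with python 3.11.15, pandas 2.3.3 and numpy 2.4.6, and figures with matplotlib 3.10.9.

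The members and gene lists were chosen with earlier results of these data known. The genes named were all members, *Mtm1*, and the 2 DEGs with the largest fold change in each role of the pathway list at each age. Other genes are marked where they are named. One gene of the pathway list was left out and is not reported here. The labels number replicates 1 to 4 in each group without saying that a number marks a shared litter or day. At P14, a WT and a KO library of the same number departed from their group means together, with *r* of 0.299 to 0.735 over genes in the 4 pairs. This was taken as pairing, although only 3 KO libraries correlated best with the WT library of their own number. At P1, P21 and P35 not every pair exceeded 0.1. The main fits held no block at any age, and the block was used as an alternative. Alternatives were DESeq2 1.42.0, its size factors in edgeR, library totals, a minimum of 10 counts per library or no filter, an adjusted *P* under 0.05, the adjusted deviances of edgeR, a replicate block, other sets of libraries in the fit, and leaving out each library. Leaving out both libraries numbered 4 at P14 or 1 at P35 was added after the data had been seen, and 0 members were called in either. No pair of replicates agreed within sampling noise, and nothing states that reads carried molecular identifiers, so counting error takes no account of PCR copies.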

Additional observations from a re-analysis of the deposited data

Results flagged for a closer look

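In 6 of 80 groups of 4 libraries, 8 groups for each of the 10 members, 1 library stood far from the other 3 by Dixon's test at the 95% level. Chance alone flags about 1 in 20 groups. *Ddit4* was flagged at 217 CPM in WT replicate 1 at P35, where the others were at 43.3 to 71.0 CPM, and at 46.9 CPM in KO replicate 3 at P21, where the others were at 17.2 to 22 CPM. *Mtor* was flagged at 64.0 CPM in WT replicate 1 at P21 (others 58.0 to 58.4 CPM) and at 37.2 CPM in KO replicate 2 at P35 (others 31.1 to 32 CPM). *Akt2* was flagged at 321 CPM in KO replicate 1 at P21 (others 295 to 299 CPM), and *Sesn2* at 3.35 CPM in KO replicate 4 at P14 (others 2.54 to 2.65 CPM). All 6 were the highest library of their group.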

How the results depend on the processing

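No member was a DEG between KO and WT at any age with TMM scaling in edgeR, whereas DESeq2 called 1 at P1 (*Ddit4*) and library totals called 2 at P21 (*Akt2* and *Eif4ebp1*) and 1 at P35 (*Eif4ebp1*). An adjusted *P* under 0.05 without a fold limit gave 1, 0, 3 and 2 members from P1 to P35, 6, 6 and 4 over the 3 steps of age in WT, 7, 4 and 3 in KO, and 1 in the interaction of P35 with P14, and 18 and 35 pathway genes at P21 and P35. At P21 the pathway genes called were 5 with library totals and 4 with DESeq2. For P14 to P21 in WT, 3 members were called with library totals and 2 with DESeq2 or with all 32 libraries in 1 fit. For P21 to P35 in WT, 1 member was called with each of library totals, DESeq2, all 32 libraries, no filter, at least 10 counts, and adjusted deviances. In KO, 6 members were called from P1 to P14 with library totals, and from P21 to P35 2 were called with DESeq2, its size factors or all 32 libraries and 0 with library totals. The interaction of P35 with P14 gave 1 member with only the 16 libraries of both ages. The cause of these differences was not tested. These counts are given without the share of all genes called in each setting, so they describe the settings and are not a result about the genes listed.

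Library totals reversed the sign of *Akt1* (0.35) and *Rptor* (0.14) in KO against WT at P35. From P1 to P14 they reversed *Akt2* (-0.29), *Mtor* (-0.51), *Rptor* (-0.17) and *Pik3r1* (-0.56) in WT and *Mtor* (-0.67) in KO. *Rptor* (0.05) was reversed in the interaction of P35 with P14. The median of all genes was then 0.44 at P35, -0.85 in WT and -0.81 in KO from P1 to P14, and 0.365 in the interaction. Each reversed value stayed on the same side of that median as with TMM, as a shift nearly common to all genes would leave it. Of 2720 alternative results of members, 8 were reversed, 24 lost a call and 63 gained one. These include the adjusted *P* under 0.05 without a fold limit, which is the main edgeR fit with a looser threshold. Part of the gained calls came from that threshold alone. A sign change was counted as a reversal where 1 of both fits had an unadjusted *P* under 0.05, and 103 others were not.

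With the replicate number as a block, 0 members were called between the genotypes at every age, as without it, and from P14 to P21 the block gave 0 in WT and 1 in KO, and from P21 to P35 in KO 0. Leaving out 1 library gave 0 to 1 members at P35, where *Mtor* was called without WT or KO replicate 2, and 0 at the other ages. It gave 2 to 4 members from P1 to P14 in WT and 3 to 4 in KO, 1 to 2 from P14 to P21 in both, and 0 to 2 from P21 to P35 in KO. The call of *Rptor* from P1 to P14 in WT was lost in 3 of 8 such fits. Pathway genes called were 0 to 1 at P1, 1 to 3 at P21 and 9 to 12 at P35. *Sesn2*, with 136 to 597 counts per library, was the member with the least depth, and 4 libraries per group limited the precision of *Ddit4*.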

Other observations

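*Angptl7*, which lies within *Mtor* on the opposite strand and encodes a secreted angiopoietin-like protein, was looked at after its values had been seen. At P1 it was at 1.76, 3.73, 2.91 and 4.33 CPM in WT and at 7.39, 7.84, 10.9 and 8.66 CPM in KO, so that all KO libraries were above all WT libraries, as in 8.73% of all genes with libraries apart in either direction. At P21 it ranged from 0.491 to 50.9 CPM in WT and from 1.19 to 54.1 CPM in KO.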
